A study of Mus musculus with 2 samples.

Results

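A set of 63 genes had high deposited expression values in Th1 cells of both Chi3l1 genotypes and a value at least 2-fold lower in the library labelled KO than in the library labelled WT. They were chosen from the values themselves. The tables of both libraries were joined by gene symbol, genes whose log2 value reached 8 in both were kept, and those with a KO minus WT difference of -1 or less were taken, apart from 6 genes that the rule leaves out (Cxcr3, Rn45s, Rnpep, Ube2t, Phlda3 and Lad1). Of 24421 genes, 8886 were at 8 or more in both libraries, and 66 of these (0.743%) were at -1 or less. Because the rule used this difference, nothing is read from that share. Rn45s, Rnpep and Ube2t account for the 3 genes between 66 and 63, and the other 3 of the 6 left-out genes were under 8 in the library labelled KO.

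Chi3l1, a secreted chitinase-like protein without chitinase activity, is listed in the tables under its symbol Chil1. The library labelled WT came from Chi3l1+/+ cells and the library labelled KO from Chi3l1-/- cells, both on the C57BL/6J background, with 1 library of each and therefore no replicates. The mice of the study were young adults of both sexes. Naïve CD4 T cells of the study had been isolated with a magnetic kit for CD4+CD25-CD62L+ cells or by flow sorting. Which of these served for the sequenced cells was not stated. The cells were skewed to Th1 in culture on plates coated with antibodies to CD3 and CD28. IL-12, IL-2 and an antibody to IL-4 were present. The disruption was present in the whole mouse, not in T cells alone, and neither the number of animals behind each library nor the days in culture was stated for the sequenced cells.

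The targeted gene went against the labels. Chil1 (chromosome 1, 134182176 to 134190181) was 0.942 in the library labelled WT, which is 1 read, and 6.656 in the library labelled KO, which is 104 rebuilt reads, a difference of 5.71 in favour of the knockout label. Values per gene cannot show which exons those reads came from. The libraries are therefore called by their labels below, and every direction given rests on those labels. The phrase "lower without Chi3l1" holds for the labels and not for the Chil1 value.

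Th1 cells are the CD4 T cell subset that arises under IL-12 and the transcription factor T-bet and that secretes IFNγ. A gene's level in such a culture depends on transcription, on RNA stability and on how many of the cells carry the transcript. In bulk RNA, fewer cells of one type and less RNA per cell cannot be told apart. No single pathway holds the 63 genes. They include metal and iron handling proteins, proteins of focal adhesions and the actin cytoskeleton, transcription factors, a chemokine, receptors and channels, and mitochondrial enzymes, and several are best known from neurons, smooth muscle or epithelium.

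The 250 bases before the start sites of 4 of these genes are shown first, from RefSeq on GRCm38.p6, 5′ to 3′ on the strand of the gene. Mt1 and Zfp580 are the genes with the largest differences and both hold a metal response element core (TGCACNC or TGCGCNC, searched on both strands), which is in capitals. Mt1 is at chr8:94178839-94179088, plus strand, and Zfp580 is at chr7:5051282-5051531, plus strand.
Mt1: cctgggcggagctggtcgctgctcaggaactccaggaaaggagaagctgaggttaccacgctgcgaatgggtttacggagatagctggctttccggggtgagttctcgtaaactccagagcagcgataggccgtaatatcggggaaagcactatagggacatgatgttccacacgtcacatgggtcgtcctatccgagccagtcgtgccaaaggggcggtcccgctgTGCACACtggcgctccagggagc
Zfp580: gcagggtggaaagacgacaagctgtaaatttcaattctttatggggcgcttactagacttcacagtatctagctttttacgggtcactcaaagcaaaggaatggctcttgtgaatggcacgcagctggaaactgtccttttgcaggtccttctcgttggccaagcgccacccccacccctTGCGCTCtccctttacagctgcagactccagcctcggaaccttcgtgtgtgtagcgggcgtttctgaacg
Ier5l, another of the largest differences, and Zyx, one of the highest values, hold the GC box GGGCGG, in capitals. Ier5l is at chr2:30474200-30474449, minus strand, and Zyx is at chr6:42349578-42349827, plus strand.
Ier5l: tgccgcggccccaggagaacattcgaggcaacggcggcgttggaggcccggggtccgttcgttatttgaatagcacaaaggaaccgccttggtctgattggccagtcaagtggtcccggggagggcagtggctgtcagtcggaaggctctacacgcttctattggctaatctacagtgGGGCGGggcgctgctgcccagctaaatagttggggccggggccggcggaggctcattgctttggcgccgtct
Zyx: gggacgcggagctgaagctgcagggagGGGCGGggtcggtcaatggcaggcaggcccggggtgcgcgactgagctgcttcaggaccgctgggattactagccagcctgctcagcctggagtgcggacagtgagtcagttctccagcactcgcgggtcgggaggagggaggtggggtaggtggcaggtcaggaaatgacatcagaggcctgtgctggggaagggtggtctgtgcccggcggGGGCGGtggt
A match of letters is a description and not a site. Of the 63 genes, 51 had a window of this kind, 72 windows in all because some genes have several start sites. The metal response element core was in 33.3% of the 72 windows, against 30.5% of the 8759 windows of genes at 8 or more in both libraries and 21.4% of all 32851 windows. The GC box was in 55.6%, 60.2% and 32.7%, respectively. The CCAAT box (CCAAT) was in 37.5%, 35% and 33.8%, and the antioxidant response element core (TGACNNNGC) in 11.1%, 11.7% and 10.2%. The serum response element was in 4.17% (3 windows), 1.08% and 1.47%, each searched on both strands. Those 3 windows belong to Ampd3 and Slc25a23 only, and the windows of Slc25a23 overlap over most of their length. The windows of the 63 genes were at a median GC content of 62% with a median of 15 CpG, and those of genes at 8 or more at 60.4% with 17 CpG.

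One member is a microRNA gene, Mir6922 (chromosome 11, 60202262 to 60202327). Its mature sequences in RefSeq, with the seed of bases 2 to 8 in capitals, lie on the minus strand at chr11:60202300-60202322 for the 5p arm and chr11:60202262-60202284 for the 3p arm.
mmu-miR-6922-5p: uGUGGGAGgggacuguagagagg
mmu-miR-6922-3p: uGUUCUGCucacccuucucacag
The seeds of both arms differ, and no other member is a microRNA. The libraries were made from polyadenylated RNA and not from small RNA, and the 66 bases of the Mir6922 gene lie wholly within exons of Srebf1 on the same strand, so reads listed under Mir6922 cannot be told from Srebf1 mRNA. Mir6922 was 9.99 and 8.96, in the order labelled WT, labelled KO, which is used for all pairs of values from here on, and its difference was -1.03 (interval -1.18 to -0.88). Srebf1 itself was 14.37 and 13.92, a difference of -0.45. Intervals are 95% exact binomial (Clopper-Pearson) intervals from read counts rebuilt from the deposited values. They hold read sampling only and no variation between mice or cultures.

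The differences of the 63 genes ran from -1.84 for Mt1 to -1 for BC100451, with a median of -1.102, and the median over all 8886 genes at 8 or more was -0.01 (SD 0.37). Of the 63, 8 were at -1.4 or less, 24 between -1.4 and -1.1, and 31 above -1.1. For 30 genes the whole sampling interval lay below -1, and for 33 it reached across -1. Just inside the threshold were Cacna2d2 and Paqr4, both at -1.003, and BC100451 at -1. Just outside were Zdhhc8 at -0.993, Nfix at -0.992 and A930005H10Rik at -0.986. The floor of 8 in the library labelled KO had Ccl5 (8.014), Ctu1 (8.031) and Sepn1 (8.052) just above it, and Angptl4 (7.965), Stard10 (7.812) and Plekhn1 (7.793) just below. In the opposite direction, 41 of the 8886 genes (0.461%) were at 1 or more.

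Values in the library labelled WT ran from 9.04 to 16.26 with a median of 10.56, and those of all 8886 genes had a median of 10.87. Of the 63 genes, 26 were under 10, 24 from 10 to 12 and 13 at 12 or more, of which 5 were at 14 or more. All were therefore at 9 or more in that library, which the rule itself forces. In the library labelled KO they ran from 8.01 to 15.10, and the fewest rebuilt reads behind any member there were 267. Together the 63 genes took 0.590% of the normalized counts in the library labelled WT and 0.299% in the library labelled KO. The scatter plot of both libraries shows them along the lower edge of the cloud over most of its range.

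**Figure D1:**
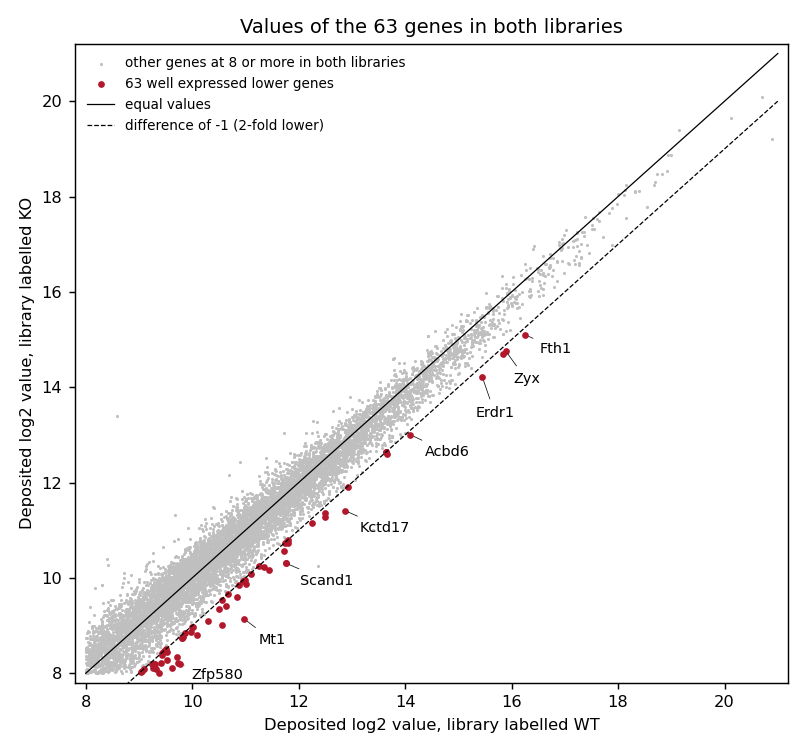
Each point is 1 gene at 8 or more in both libraries, with its deposited log2 value in the library labelled WT on the horizontal axis and in the library labelled KO on the vertical axis (1 library each). The 63 genes, in red, lie on or under the dashed line of 2-fold lower values, from 9.04 to 16.26 on the horizontal axis, which the rule that chose them sets.

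Relatives and partners of the 63 genes are named only where they were at 8 or more in both libraries, unless said otherwise, and not all of those are named. The genes were sorted by known role after the list was seen, and the plot of genes by role gives the values of 62 of them. Of the 63, 59 are annotated as protein coding, 1 as a microRNA, 1 as a processed transcript and 1 as a processed pseudogene, and 1 (BC100451) had no match in the annotation.

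**Figure D2:**
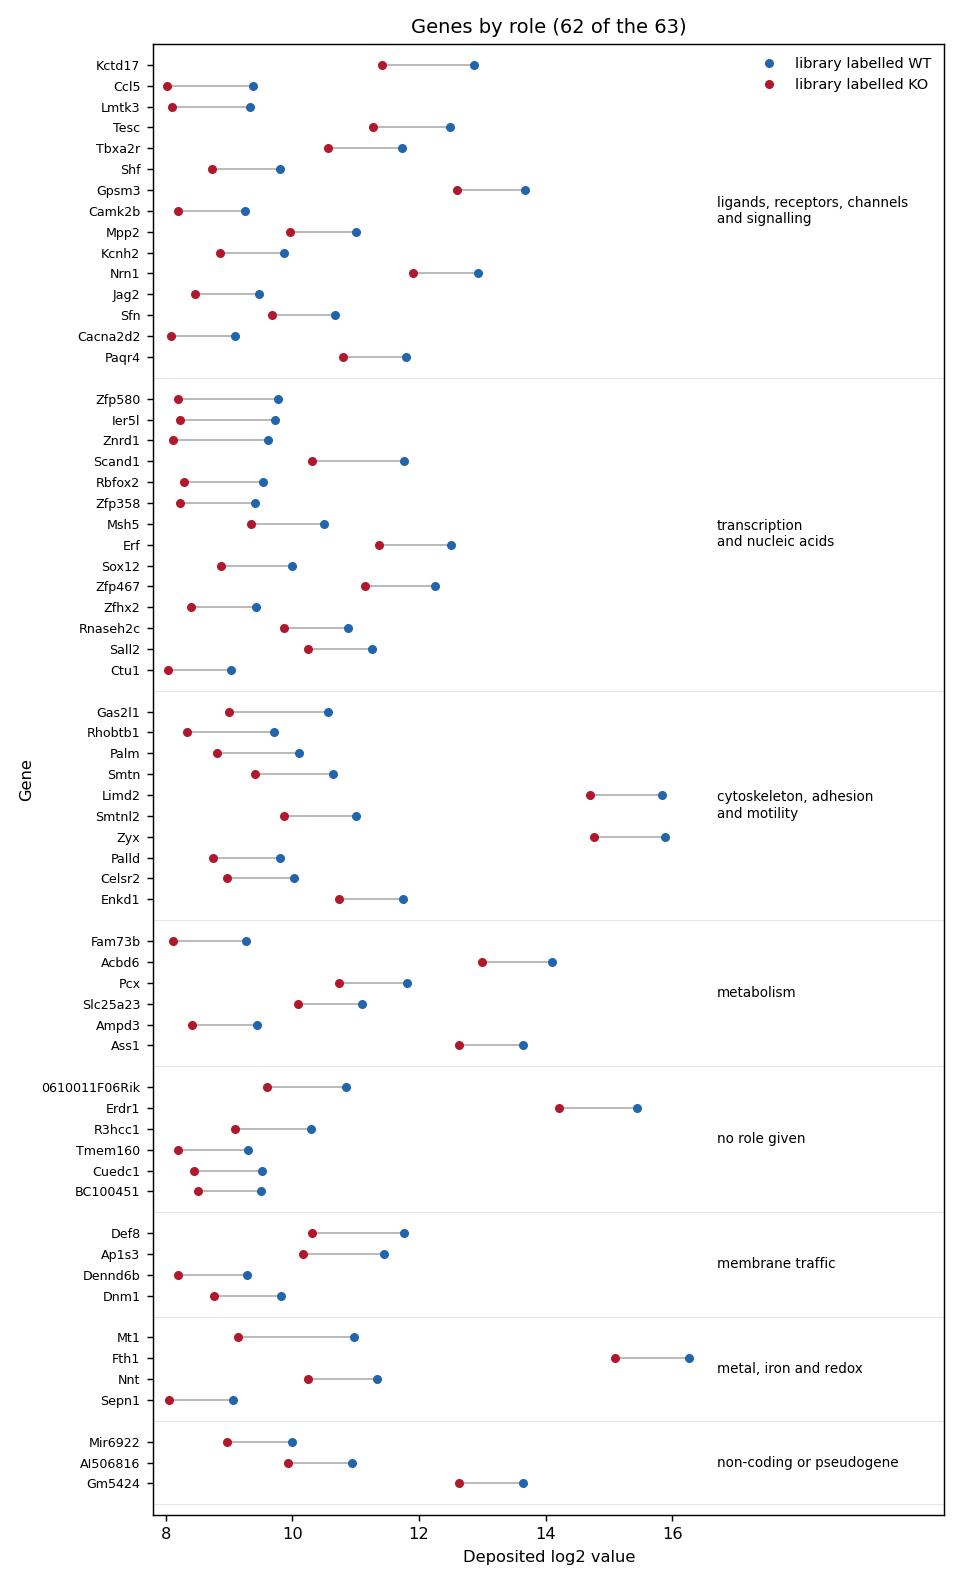
Deposited log2 values of 62 of the 63 genes on the horizontal axis, 1 gene a row, grouped by role, with the library labelled WT in blue and the library labelled KO in red (1 library each, no error bar). Fth1, Zyx, Limd2 and Erdr1 stand to the right of the others, and Mt1 has the longest line, from 10.98 to 9.14.

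Metal, iron and redox proteins numbered 4. Mt1 (chromosome 8, 94179082 to 94180327) encodes metallothionein 1, a small cysteine-rich protein that binds zinc and copper and whose gene is switched on by zinc. Mt1 was 10.98 and 9.14, a difference of -1.84 (interval -1.98 to -1.71). Its neighbour and close relative Mt2 was 8.96 and 7.08, a difference of -1.88, and stayed out of the set only because it was under 8 in the library labelled KO. Fth1 (chromosome 19, 9980598 to 9985098) encodes the heavy chain of ferritin, which oxidizes and stores iron, and had the highest value of the set at 16.26 and 15.098, a difference of -1.16 (interval -1.18 to -1.14). Ftl1, the light chain of the same complex, was 15.64 and 15.36 (-0.28), which is within 2-fold. Per length of all annotated exons of the gene joined, Fth1 had 23427 and 10496 rebuilt reads per kb, against 1677 and 468 for Mt1. Nnt (chromosome 13, 119335448 to 119408997), the mitochondrial transhydrogenase that makes NADPH, was 11.34 and 10.24, a difference of -1.102 (interval -1.200 to -1.005). The C57BL/6J strain is known to carry a deletion within Nnt, and values per gene do not show which exons were read. Sepn1 encodes selenoprotein N of the endoplasmic reticulum and was 9.06 and 8.05, a difference of -1.005 (interval -1.22 to -0.79).

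Of the 10 genes of cytoskeleton, adhesion and motility, Gas2l1 (chromosome 11, 5054132 to 5065327), which links actin and microtubules, had the largest difference. Gas2l1 was 10.56 and 9.01, a difference of -1.55 (interval -1.699 to -1.41), whereas Gas2 was 8.38 and 8.31 (-0.07) and Gas2l3 10.598 and 10.71 (0.12). Rhobtb1, an atypical small GTPase, was 9.71 and 8.34, a difference of -1.37 (interval -1.56 to -1.19), and Rhobtb2 was 9.98 and 9.64 (-0.33). Palm encodes paralemmin, a lipid-anchored protein of the plasma membrane, and was 10.098 and 8.81, a difference of -1.29 (interval -1.45 to -1.14). The smoothelin family had 2 members in the set. Smtn, smoothelin itself, is an actin-binding protein best known from smooth muscle and was 10.64 and 9.41, a difference of -1.24 (interval -1.37 to -1.11), and Smtnl2 was 11.01 and 9.87, a difference of -1.14 (interval -1.25 to -1.03).

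The most abundant transcripts of this group by value were those of the LIM domain proteins Zyx and Limd2. Zyx (chromosome 6, 42349630 to 42360213) encodes zyxin, a focal adhesion protein that moves to actin fibres under tension, and was 15.89 and 14.76, a difference of -1.13 (interval -1.15 to -1.11). Of its relatives, those at 8 or more were Lpp at 11.13 and 11.24 (0.11), Ajuba at 9.01 and 9.22 (0.21) and Limd1 at 11.22 and 11.06 (-0.16). Limd2 (chromosome 11, 106156256 to 106160860) was 15.84 and 14.700, a difference of -1.14 (interval -1.16 to -1.12). Per length of annotated exons, Limd2 had 16431 and 7454 rebuilt reads per kb and Zyx 11650 and 5344. The other 3 genes were Palld (palladin, an actin-binding scaffold) at 9.802 and 8.74, Celsr2 (an atypical cadherin of planar cell polarity) at 10.02 and 8.97 and Enkd1 (a protein of centrosomes and cilia) at 11.75 and 10.73, with differences from -1.06 to -1.02. A list of general actin cytoskeleton and adhesion genes did not contain these members. Its 20 genes at 8 or more had a median of -0.12, and 0 were 2-fold higher. That 0 were 2-fold lower is set by the rule, since such a gene would be a member.

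Ligands, receptors, channels and signalling proteins formed the largest group, with 16 genes and a median difference of -1.05. Secreted or surface-bound ligands included Ccl5, Nrn1 and Jag2. Ccl5 (chromosome 11, 83525778 to 83530518), a chemokine that draws T cells and monocytes, was 9.37 and 8.01, a difference of -1.36 (interval -1.57 to -1.15), from 684 and 267 rebuilt reads. The related chemokines Ccl3 and Ccl4 were 11.81 and 11.94 (0.13) and 12.58 and 12.29 (-0.29). Ccl5 was the 1 member of the set on a list of cytokines, chemokines and their receptors, of which 27 were at 8 or more (median -0.16). The 1 that was 2-fold lower is Ccl5 itself, and 1 was 2-fold higher. Over all 8886 genes at 8 or more, 0.743% were 2-fold lower and 0.461% 2-fold higher.

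Nrn1 encodes neuritin, a membrane-anchored protein first known from neurons, and was 12.93 and 11.91, a difference of -1.02 (interval -1.08 to -0.97). Its exons overlap those of Fars2 on the opposite strand over 501 bases, and Fars2 was 9.40 and 9.45. Jag2, a ligand of Notch, was 9.47 and 8.46, a difference of -1.01 (interval -1.199 to -0.83).

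Kctd17 (chromosome 15, 78428564 to 78439303), an adaptor of a cullin ubiquitin ligase, had the largest difference of the signalling genes at 12.87 and 11.41, a difference of -1.46 (interval -1.52 to -1.39). Kctd2 was 9.65 and 9.66 (0.02) and Kctd5 9.32 and 9.53 (0.21). Lmtk3, a membrane kinase, was 9.33 and 8.09, a difference of -1.23 (interval -1.44 to -1.03). Tesc, a calcium-binding protein of the family that binds sodium-proton exchangers, was 12.49 and 11.27, a difference of -1.22 (interval -1.29 to -1.15), and its relative Chp1 was 12.49 and 12.54 (0.05). Gpsm3, which binds inhibitory G protein α subunits, was 13.67 and 12.599, a difference of -1.07 (interval -1.11 to -1.03), with 227 exon bases shared with Pbx2 on the same strand (11.44 and 11.27).

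The receptors and channels among the remaining signalling genes were Tbxa2r (the thromboxane A2 receptor, 11.73 and 10.57), Paqr4 (of the adiponectin receptor family, 11.798 and 10.795), Kcnh2 (a voltage-gated potassium channel, 9.87 and 8.85) and Cacna2d2 (an auxiliary subunit of calcium channels, 9.09 and 8.08). Tbxa2r was at -1.16, and the prostanoid receptors Ptger1, Ptger2, Ptger4 and Ptgir were at -0.55, -0.64, -0.297 and -0.28, all lower. Inside the cell were Camk2b (the β chain of the calcium and calmodulin kinase II, 9.25 and 8.19), Mpp2 (a membrane scaffold, 10.998 and 9.96), Shf (an SH2 domain adaptor, 9.81 and 8.74) and Sfn (the 14-3-3 protein σ, 10.68 and 9.67). Of the other chains of the kinase, Camk2d was 14.01 and 13.36 (-0.65) and Camk2g 12.495 and 12.42 (-0.07). The 6 other 14-3-3 genes at 8 or more were between -0.09 and 0.504.

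Transcription and nucleic acid proteins numbered 14, with a median difference of -1.14. The zinc finger genes of the Zfp series were 3. Zfp580 (chromosome 7, 5051538 to 5053723) was 9.78 and 8.19, a difference of -1.59 (interval -1.78 to -1.396), Zfp358 was 9.42 and 8.23, a difference of -1.19 (interval -1.39 to -0.996), and Zfp467 was 12.25 and 11.14, a difference of -1.11 (interval -1.18 to -1.04). They lie on chromosomes 7, 8 and 6. Scand1, which carries the SCAN dimerization domain without zinc fingers, was 11.76 and 10.31, a difference of -1.45 (interval -1.55 to -1.36). Its exons overlap those of Cnbd2 on the opposite strand over 40.5% of their length, and Cnbd2 was 5.76 and 5.20.

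Ier5l (chromosome 2, 30471537 to 30474219), a relative of the immediate early gene Ier5, was 9.73 and 8.23, a difference of -1.51 (interval -1.699 to -1.32). Ier5 was 9.98 and 9.27 (-0.72), the lowest difference among the 65 relatives and partners at 8 or more in both libraries. Znrd1 (chromosome 17, 36954356 to 36958559), a small zinc ribbon subunit of RNA polymerase I, was 9.61 and 8.12, a difference of -1.49 (interval -1.69 to -1.300), while Polr1a to Polr1e, which encode other subunits of polymerase I, were between -0.07 and 0.61. Rbfox2, a splicing regulator, was 9.53 and 8.29, a difference of -1.25 (interval -1.44 to -1.06).

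Erf (12.501 and 11.36), an ETS repressor that ERK phosphorylation drives out of the nucleus, was at -1.14, and its relative Etv3 was 11.68 and 11.58 (-0.102). Sox12 (9.99 and 8.87), Sall2 (11.26 and 10.24) and Zfhx2 (9.42 and 8.39) are transcription factors best known from the nervous system and development. Zfhx2 shares 3255 exon bases with Zfhx2os on the opposite strand, which was 6.85 and 5.60. Msh5 (10.49 and 9.35) belongs to the MutS family and acts in meiosis. Rnaseh2c (10.88 and 9.86) encodes a subunit of RNase H2, and the other subunits Rnaseh2a and Rnaseh2b were at 0.06 and 0.23. Ctu1 (9.04 and 8.03) thiolates tRNA together with Ctu2, which was at -0.28.

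Among the 4 genes of membrane traffic, Def8 (chromosome 8, 123423527 to 123463270), which acts on late endosomes and lysosomes with Plekhm1, was 11.76 and 10.31, a difference of -1.44 (interval -1.54 to -1.35). Plekhm1 was 11.703 and 11.27 (-0.43). Ap1s3, a small σ subunit of the clathrin adaptor complex AP-1, was 11.45 and 10.17, a difference of -1.28 (interval -1.38 to -1.18). The alternative σ subunits Ap1s1 and Ap1s2 were 10.78 and 10.37 (-0.403) and 8.204 and 8.49 (0.29), one lower and one higher. Dnm1, the dynamin best known from synapses, was 9.83 and 8.76, and the widely expressed Dnm2 was 15.12 and 14.81 (-0.31). Dennd6b, an activator of Rab GTPases, was 9.28 and 8.197, and its paralog Dennd6a was 10.87 and 11.28 (0.42).

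Of the 6 metabolic genes, Acbd6 (chromosome 1, 155558120 to 155691330), which binds acyl-CoA, was the highest by value at 14.100 and 13.003, a difference of -1.097 (interval -1.13 to -1.06), whereas Acbd3, Acbd4 and Acbd5 were at 0.38, -0.64 and 0.64. Acbd6 and Ap1s3 (79606876 to 79671972) are the members on chromosome 1, which also carries Chil1 (134182176 to 134190181). The genes that the rule leaves out are not counted here. Ass1 (chromosome 2, 31470207 to 31520672), argininosuccinate synthase of the urea cycle and of arginine synthesis, was 13.64 and 12.63, a difference of -1.01 (interval -1.05 to -0.97), and Asl, which takes the next step, was 9.63 and 10.03 (0.398). Pcx, pyruvate carboxylase, was 11.81 and 10.73. Slc25a23, a mitochondrial carrier of ATP-magnesium and phosphate, was 11.102 and 10.08, Ampd3, an AMP deaminase, was 9.44 and 8.42, and Fam73b, a protein of the outer mitochondrial membrane, was 9.27 and 8.11. Their differences lay between -1.16 and -1.02. Over 71 oxidative phosphorylation genes at 8 or more, none of them a member, 0 were 2-fold higher and the median was -0.02.

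Gm5424 (chromosome 10, 62071123 to 62072362), a processed pseudogene, had exactly the values of Ass1, 13.64 and 12.63. Its 1240 bases were 99.5% identical to the longest Ass1 transcript over their whole length, with 6 mismatches and no gap. The authors counted reads with several alignments, so these 2 entries hold reads that cannot be assigned to one of them and may be 1 signal listed under both names. Erdr1 (chromosome X, 170009659 to 170019281, named Gm21887 in the annotation), once described as a secreted factor of erythroid differentiation, had a high value of 15.45 and 14.21, a difference of -1.24 (interval -1.27 to -1.22), and 61113 and 25885 rebuilt reads per kb over 759 bases of annotated exons. Among the other genes given no role, 0610011F06Rik, also named Mettl26, was 10.85 and 9.603, a difference of -1.25 (interval -1.37 to -1.13), and R3hcc1 was 10.29 and 9.09, a difference of -1.197 (interval -1.34 to -1.06). The rest were Tmem160 (9.29 and 8.19), Cuedc1 (9.52 and 8.45) and BC100451 (9.51 and 8.51). The processed transcript AI506816 was 10.95 and 9.93.

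Reads that may be shared with a gene at 8 or more touch 7 of the 63. These are Ass1 and Gm5424, and Mir6922, Gpsm3, Nrn1, Paqr4 and Rnaseh2c, whose exons overlap those of a gene at 8 or more. Paqr4 shares 319 exon bases with Pkmyt1 (13.76 and 12.95) and Rnaseh2c 426 with Kat5 (14.29 and 14.09), both on the opposite strand. Whether the counting used strand was not stated. Without these 7, 56 genes remained. At any level of the other gene, exons of 13 members overlapped those of another gene in the tables. Reads with several alignments were sought only through equal values, so other members may share reads that were not seen.

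Relatives and partners were taken for 47 of the 63 genes after the list was known, 137 in all, of which 65 were at 8 or more and belonged to 33 members. Members were not counted as relatives. A relative at 8 or more and at -1 or less would be a member, so the rule itself sets that none of the 65 was 2-fold lower. None was 2-fold higher. Of them 31 were below 0 and 34 above, with a median of 0.04 and a range from -0.72 for Ier5 to 0.64 for Acbd5. Since the 63 genes were picked for their difference and the relatives were not, a smaller difference in the relatives follows in part from the choice. The relatives also had a lower GC content, with a median of 49.2% against 56.8% for the members, and 15 of the 65 had a higher GC content than their member.

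GC content of the transcript moved with the difference over all genes. Across 8850 genes at 8 or more with a transcript sequence, the KO minus WT difference fell as GC content rose (Spearman's rank correlation -0.53, a description, since genes are not independent), and it was nearly unrelated to transcript length (rank correlation 0.05). Over 20 GC bins, the median difference was 0.23 in the lowest and -0.45 in the highest. The 62 members with a transcript had a median GC content of 56.8% (from 39.5% for Ap1s3 to 69.7% for Erdr1), and all 8850 genes had 50.02%. Of the 62, 56 lay above the median of all genes and 42 above its upper quartile of 54.6%. The highest GC bin, from 59.5% to 70.0%, held 17 members among its 443 genes (3.84%), and the lowest bin held 1 among 443, Ap1s3. The median transcript length was 3095.5 bases for the members and 3429 bases for all genes.

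**Figure D3:**
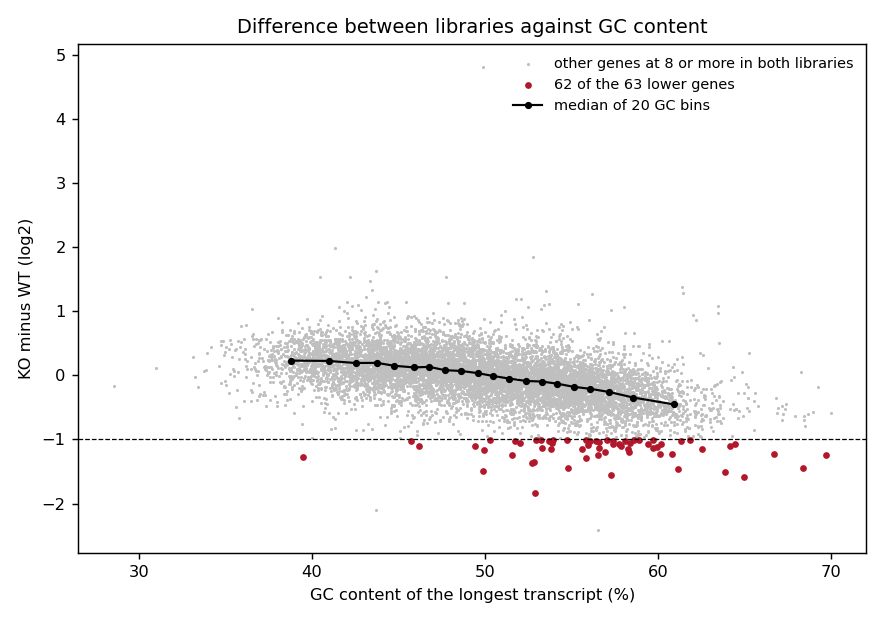
KO minus WT difference of the deposited log2 values (vertical axis) against the GC content of the longest transcript in percent (horizontal axis), 1 point a gene at 8 or more in both libraries. The black line joins the medians of 20 GC bins, which pass from 0.23 to -0.45, and 56 of the 62 members in red lie above 50.02% GC, the median of all genes.

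When the bin medians were subtracted as a trend, held constant beyond the outermost bins, 20 of the 62 members stayed at -1 or less and 42 did not. Over all 8850 genes, 32 (0.362%) were then at -1 or less. All 62 members stayed below the trend, from -1.75 to -0.56 with a median of -0.88, and 53 of them were at -0.7 or less, but since the highest bin median was 0.23 and the lowest -0.45, a gene chosen at -1 or less could not rise above it. Mt1 was at -1.75 after removal, Znrd1 at -1.51, Ap1s3 at -1.51, Gas2l1 at -1.29, Def8 at -1.28, Rhobtb1 at -1.28 and Ccl5 at -1.26. The others that stayed were Acbd6, Rbfox2, Fth1, Nrn1, Nnt, Zfp580, Palm, Ier5l, Smtnl2, Limd2, 0610011F06Rik, Ampd3 and Kctd17. Of these, Zfp580, Ier5l and Kctd17 lie above 60.91% GC, the median of the highest bin, where the trend was held at -0.454. Whether they would stay under a trend that kept falling was not tested. Genes rich in GC moved furthest, with Erdr1 at -0.79, Lmtk3 at -0.78 and Scand1 at -0.998, while Ap1s3 (39.5% GC), Acbd6 (46.2%) and Nrn1 (45.7%) became more negative. By role, 3 of 4 metal, iron and redox genes, 5 of 10 cytoskeleton and adhesion genes, 2 of 4 traffic genes, 2 of 6 metabolic genes, 4 of 14 transcription and nucleic acid genes and 3 of 16 ligand, receptor and signalling genes stayed, and 1 was 0610011F06Rik, given no role. The part of GC content in the difference of any single gene was not tested beyond this subtraction.

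**Figure D4:**
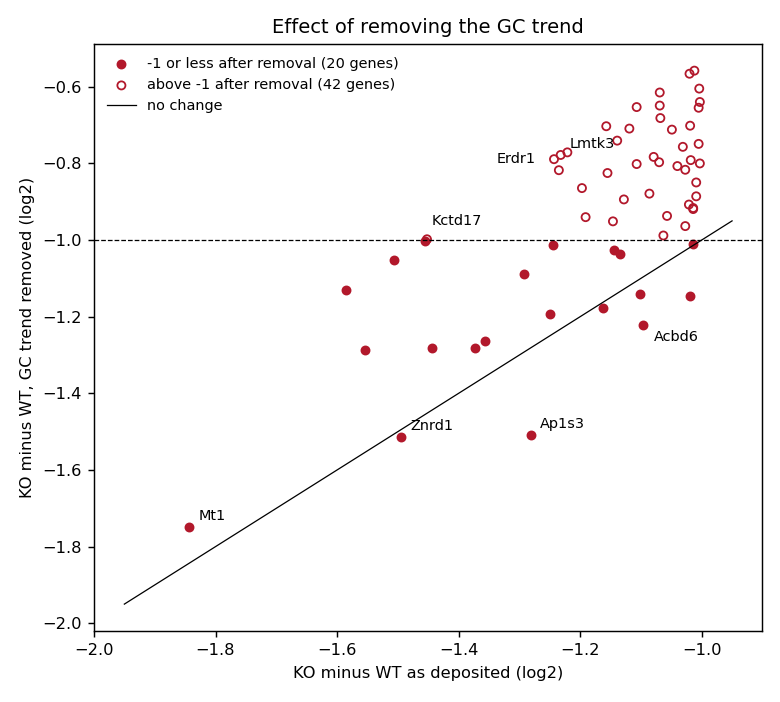
Each point is 1 of 62 members, with its KO minus WT difference as deposited on the horizontal axis and after subtraction of the GC trend on the vertical axis (both log2). The 20 filled points stay at or below the dashed line at -1, the 42 open points lie above it, and the highest is at -0.56.

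The cell source of these transcripts was examined through marker lists, and none of the 63 genes was on any of them. Defining markers of the labelled cell type were present in both libraries. CD4 T cell markers summed to 282437 normalized counts in the library labelled WT and 263991 in the library labelled KO, with 8 of 8 listed markers in the tables at 8 or more (2 more, Trac and Trbc2, were not among the symbols), and Th1 markers to 49085 and 58424. Naïve T cell markers summed to 457354 and 412282, Treg markers to 77911 and 92010, and CD8 T cell markers to 812 and 806. Most of the Treg sum came from Il2ra (60237 and 71621 rebuilt reads) and Ctla4 (16825 and 18899). Foxp3 had 2032 and 3366 reads, Ikzf4 1420 and 1324, and Ikzf2 168 and 317. Markers of B cells summed to 1852 and 3752, with 2 of the 4 at 8 or more 2-fold higher in the library labelled KO, those of plasma cells to 11920 and 14576, of which Xbp1, also expressed by T cells, was at 13.53 and 13.82, and those of monocytes or macrophages to 528 and 489 (5 and 4 of 9 at 0). Neutrophil markers summed to 82 and 4 (2 and 8 of 9 at 0), eosinophil markers to 77 and 8 (2 and 4 of 5 at 0), platelet markers to 103 and 55 (2 of 5 at 0 in both), dendritic cell markers to 73 and 121 (4 and 3 of 7 at 0), NK cell markers to 50 and 104 (3 and 1 of 6 at 0), erythroid markers to 31 and 33 (2 and 8 of 10 at 0), and the 1 gamma-delta T cell marker in the tables to 20 and 31.

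Mast cell or basophil markers summed to 907 and 803 (1 and 2 of 7 at 0), and the markers did not move together. Hdc was 8.62 and 9.43, while the basophil protease genes Prss34 (7.61 and 5.08, from 201 and 34 rebuilt reads) and Mcpt8 (6.38 and 3.86, from 85 and 14), and Gata2 (7.82 and 6.04, from 233 and 67), were lower in the library labelled KO, as were the 63 genes. Cpa3 had 11 and 5 reads, Fcer1a 4 and 0, and Ms4a2 was at 0 in both.

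Stromal or endothelial markers summed to 20597 and 15287, of which Pecam1, a gene that T cells also express, was at 14.32 and 13.89. The other markers of this list were mixed. Col1a2, Col3a1 and Dcn were at 0 in both libraries, whereas Col1a1 had 149 and 106 rebuilt reads. Pdgfrb had 17 and 23, Kdr 11 and 5 and Cdh5 4 and 0. Smtn, which is known from smooth muscle, had 1654 and 704 rebuilt reads, and Tbxa2r, known from smooth muscle and platelets, had 3509 and 1577. Among the platelet markers, Itga2b had 99 and 53 reads, Gp1ba 6 and 3 and Pf4 2 and 1. Ppbp and Gp9 were at 0 in both libraries. Summed markers of neutrophils, eosinophils, platelets, mast cells or basophils, monocytes or macrophages and stromal or endothelial cells were lower in the library labelled KO. So were those of CD4, naïve and CD8 T cells, and the sum over all genes (68448996 and 60913079). Those of B, plasma, dendritic, NK, erythroid, gamma-delta T, Treg and Th1 cells were higher. Within the lower lists, Hdc, Csf1r (97 and 175 rebuilt reads), Mrc1 (0 and 29) and Cd8a (289 and 440) were among the markers that were higher. Within the higher lists, Itgax (44 and 5), Klrb1c (17 and 9) and Tbx21 (16732 and 13960) were among the markers that were lower. Of the erythroid markers only Alas2 (3 and 19) was higher. A sum therefore does not speak for each marker of its list. The part of any of these cells in the differences of the 63 genes was not tested.

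Pathway lists outside the set gave the frame for these genes. The list of small non-coding RNA genes had 93 at 8 or more, 2 of them 2-fold higher (median -0.11). The 1 that was 2-fold lower is Mir6922 itself. The lists that follow held no member, so the rule sets that none of their genes at 8 or more was 2-fold lower. No gene was 2-fold higher among 21 T cell receptor response and AP-1 genes (median -0.17), 9 ERK feedback phosphatase and Sprouty genes (-0.52), 16 p53 target genes (0.19), 13 signalling and transcription repressors (-0.21), 12 MHC and antigen presentation genes (-0.20), 80 cytosolic ribosomal protein genes (0.12) and 46 histone genes (-0.45). Over all 8886 genes at 8 or more, 0.461% were 2-fold higher, so lists of this size can hold none without differing from all genes. Histone genes had a median GC content of 59.3%, and their median was -0.07 after the GC trend was removed. Genes named as mitochondrially encoded were not in the tables.

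The members were spread over the genome, with the left-out genes not counted. Chromosome 11 held 9 of its 772 genes at 8 or more (1.17%) and chromosome 2 held 7 of 725 (0.966%). Chromosome 17 held 6 of 477 (1.26%), chromosome 7 held 6 of 672 (0.893%) and chromosome 8 held 5 of 479 (1.04%). Chromosome 1 held 2 of 480 (0.417%), and chromosomes 16 and 18 held none of 282 and 226. Of the 62 with a position, 36 lie on the minus strand.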

How the data were processed

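RNA of 1 library of Th1 cells per genotype was analysed. The authors prepared libraries from polyadenylated RNA with the SENSE mRNA-Seq kit, aligned reads with TopHat to mm10 (per the submitters' processing notes), counted unique and multiple alignments for edgeR and applied a global normalization. The annotation and the strand setting of the counting are not given in the sources used here. The deposited values are log2 values per gene symbol, taken to be log2 of (normalized count + 1), because once this is undone 96.1% (labelled WT) and 92.1% (labelled KO) of low values, up to 30 reads, were within 0.1 read of a whole multiple of 0.966 or 0.963. Reads rebuilt with these steps summed to 70882140 and 63241519.

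KO minus WT was the difference of the deposited values. With 1 library per group there is no test and no p-value. Positions, and the longest transcript's length and GC content, came from GENCODE M21 (GRCm38, the same build as mm10), and 62 of 63 members and 99.6% of the 8886 genes had a transcript. The GC trend was the median of 20 bins, interpolated. Overlaps were counted on exons. Full values were given for the 20 lowest differences, the 10 highest values in the library labelled WT, members on a list and members sharing a family, and for genes next to the thresholds. The members, roles, relatives and lists were chosen with earlier results of these data known. Alternatives were other folds and floors, median-ratio, quantile and Actb scaling, GC trend removal and no pseudocount. One member and a few comparisons are not reported here. Scripts were tested on simulated data. The software was matplotlib 3.10.9, scipy 1.17.1, pandas 2.3.3 and numpy 2.4.6 under Python 3.11.15.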

Additional observations from a re-analysis of the deposited data

How the results depend on the processing

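No paired analysis was possible because each genotype has 1 library and no replicate numbers are shared, and for the same reason no replicate could be left out. Against the 63 genes reported, the 1.5-fold threshold gave 556 genes and the 3-fold threshold 2, a floor of 9 in both libraries gave 35, and a floor of 8 in at least 1 library gave 110. Scaling to Actb, which shifted the median of all genes to 0.11, gave 29, all of them among the 63. Removal of the GC trend gave 30, of which 20 were among the 63, and with 10 bins, an alternative chosen after seeing the data, 30, of which 21 were among the 63. The median difference moved to -0.88 with the GC trend removed. Median-ratio scaling gave 55 genes, quantile normalization 58, a floor of 7 86 and no pseudocount 63. Leaving out the genes that may share reads with a gene at 8 or more, also chosen after seeing the data, gave 56. With the left-out genes included, lower against higher genes stood at 66 to 41 as reported, at 32 to 64 with Actb scaling and at 32 to 33 with the GC trend removed. The 2 libraries cannot separate genotype from animal, culture or library, the Chil1 value goes against the labels, and the sampling intervals count reads as independent.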

Other observations

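Removal of the GC trend also brought in 10 genes that were not among the 63, with deposited differences from -0.99 to -0.83 and GC contents from 40.0% to 47.3%. They are described without a test. Pdlim1, a PDZ and LIM domain protein of actin fibres, was 13.57 in the library labelled WT and 12.72 in the library labelled KO, and its difference went from -0.85 to -1.05. Mcm6, a subunit of the replicative helicase, was 13.91 and 13.01, going from -0.899 to -1.003. The chemokine receptor Cxcr4 was 9.75 and 8.82, going from -0.93 to -1.05, and Tox, a nuclear factor of T cell development and exhaustion, was 11.30 and 10.43, going from -0.87 to -1.01. Serpinb6a (-0.98 to -1.20), the inhibitory receptor Lair1 (-0.84 to -1.04) and the quinone reductase Nqo2 (-0.85 to -1.04) also entered, together with the non-coding A930005H10Rik, BC037032 and Gm12238.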
